A study of Mus musculus with 10 samples.

Results

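Broad regions at single gene ends made up 652 of the 12266 regions obtained by merging 10 ATAC-seq peak lists from mouse liver tumours. In ATAC-seq a transposase cuts and tags accessible DNA, and a called peak is a stretch in which the tags pile up above the local background. Members were defined by calls and length in the peak lists. A member was called in 2 to 9 of the 10 lists, spanned at least 800 bp once all lists were merged (its union length), and lay within 1 kb of an end of exactly 1 protein-coding gene. Calls and lengths are therefore given as description, per library and with no p-value. Genotype played no part in the choice.

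All tumours came from FVB mice in which a tetracycline-controlled activator under the liver promoter LAP drives a MYC transgene (LAP-tta and TRE-MYC) once doxycycline water is withdrawn, and were collected at death. Homo tumours (n = 3, about 100 days of age) carried Arid1a fl/fl with Alb-cre, Cre recombinase under the albumin promoter. Het tumours (n = 3, about 70 days) carried Arid1a fl/+ with Alb-cre. WT tumours (n = 4, about 55 days) carried Arid1a fl/fl without Cre. All groups thus shared both transgenes and at least 1 floxed allele. Cells of the tumour tissue in which Cre was never active keep Arid1a. Age and Cre follow genotype and cannot be told apart from it. The labels number the replicates without saying that each is a separate mouse, so the p-values speak only of the spread among libraries, which may be technical.

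The lists held 1748 to 9587 merged regions on the autosomes and X. Depth, recovered from the lists as background tags per 200 bp, was 0.914, 0.464 and 1.61 in Homo 1 to 3, 0.696, 0.655 and 0.738 in Het 1 to 3, and 1.75, 1.13, 0.985 and 1.40 in WT 1 to 4. Homo 2 was the shallowest library and every Het library was shallower than every WT library. A peak inside Arid1a was called in 1 of 3 Homo, 2 of 3 Het and 4 of 4 WT libraries, which does not test for the deletion, since the position of the floxed exon was not used here. Of 9 hepatocyte markers, 2, 0 and 5 had a gene-end peak in Homo 1 to 3, 1 in each Het library, and 4, 5, 1 and 3 in WT 1 to 4. Cebpa was the marker found in every library but Homo 2. Endothelial, stellate, lymphocyte or neutrophil and erythroid markers had none in any library; of the macrophage markers Spi1 had one in Homo 3, and of the cholangiocyte markers Epcam had one in WT 3 and WT 4. In bulk tissue, fewer cells with an open region and a less open region in each cell cannot be told apart.

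The start of an active gene usually lies in a stretch free of nucleosomes, kept clear by transcription factors, the transcription machinery and remodelling complexes. Many mammalian promoters are CpG islands, rich in G, C and the CpG dinucleotide, with GC boxes bound by SP and KLF zinc finger factors. ARID1A is the large DNA-binding subunit of the BAF form of SWI/SNF, an ATP-driven complex that slides and ejects nucleosomes at promoters and enhancers.

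The promoters of 7 members are shown because the results below return to these genes. Tdrd3 and Ube2d3 are among the longest members, and Rad23b and Gorasp2 among those with the highest fold. Kif13a was called in every Het and no WT library, Actl6a in every WT and no Het library, and Rasl11b in every Homo and no Het library. Each sequence has 300 bases from RefSeq (GRCm38.p6, which shares its primary coordinates with mm10), of which the first 250 precede the gene start, and runs 5′ to 3′ along the gene. The reference is C57BL/6J, not FVB. The windows are chr14:87416333-87416632 on the plus strand for Tdrd3, chr3:135437982-135438281 (plus) for Ube2d3, chr4:55349792-55350091 (plus) for Rad23b, chr2:70661259-70661558 (plus) for Gorasp2, chr13:46929669-46929968 (minus) for Kif13a, chr3:32708296-32708595 (plus) for Actl6a and chr5:74195076-74195375 (plus) for Rasl11b. Capitals mark matches on either strand to the GC box GGGCGG, the CCAAT box CCAAT or the YY1 motif AAGATGGC, and no other motif searched had a match here.
Tdrd3: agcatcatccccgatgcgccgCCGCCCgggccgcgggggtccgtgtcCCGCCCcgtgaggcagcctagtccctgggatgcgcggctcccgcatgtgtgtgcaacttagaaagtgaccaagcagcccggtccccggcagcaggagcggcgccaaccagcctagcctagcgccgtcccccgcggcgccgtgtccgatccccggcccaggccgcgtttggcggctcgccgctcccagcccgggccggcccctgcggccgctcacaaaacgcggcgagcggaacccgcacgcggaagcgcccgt
Ube2d3: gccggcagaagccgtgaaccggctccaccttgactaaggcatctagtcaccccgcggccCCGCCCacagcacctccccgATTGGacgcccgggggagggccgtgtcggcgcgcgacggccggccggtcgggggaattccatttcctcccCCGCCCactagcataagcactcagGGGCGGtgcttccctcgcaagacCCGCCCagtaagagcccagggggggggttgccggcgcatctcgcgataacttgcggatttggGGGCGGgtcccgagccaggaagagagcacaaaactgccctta
Rad23b: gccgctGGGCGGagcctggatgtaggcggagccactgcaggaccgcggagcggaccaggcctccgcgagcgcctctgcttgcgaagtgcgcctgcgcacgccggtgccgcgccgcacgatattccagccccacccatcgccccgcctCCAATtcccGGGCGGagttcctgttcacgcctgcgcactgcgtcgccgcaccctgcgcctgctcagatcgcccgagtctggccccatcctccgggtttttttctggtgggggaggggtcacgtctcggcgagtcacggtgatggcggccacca
Gorasp2: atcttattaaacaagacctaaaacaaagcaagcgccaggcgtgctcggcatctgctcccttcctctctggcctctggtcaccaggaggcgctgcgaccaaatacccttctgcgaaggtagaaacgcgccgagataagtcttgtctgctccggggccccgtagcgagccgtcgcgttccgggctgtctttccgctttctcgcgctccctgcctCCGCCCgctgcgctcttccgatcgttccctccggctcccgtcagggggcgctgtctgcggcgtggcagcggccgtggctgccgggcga
Kif13a: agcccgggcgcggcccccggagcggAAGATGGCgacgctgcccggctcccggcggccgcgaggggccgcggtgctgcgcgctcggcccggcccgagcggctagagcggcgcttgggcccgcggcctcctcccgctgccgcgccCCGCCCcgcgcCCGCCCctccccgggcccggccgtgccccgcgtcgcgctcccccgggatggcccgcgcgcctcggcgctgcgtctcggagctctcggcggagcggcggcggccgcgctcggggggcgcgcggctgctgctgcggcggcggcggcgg
Actl6a: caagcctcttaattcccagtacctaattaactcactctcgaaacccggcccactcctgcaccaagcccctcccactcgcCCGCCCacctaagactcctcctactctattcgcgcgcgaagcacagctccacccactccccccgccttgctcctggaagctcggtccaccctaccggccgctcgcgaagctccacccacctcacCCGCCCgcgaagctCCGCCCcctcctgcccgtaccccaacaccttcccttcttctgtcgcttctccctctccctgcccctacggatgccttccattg
Rasl11b: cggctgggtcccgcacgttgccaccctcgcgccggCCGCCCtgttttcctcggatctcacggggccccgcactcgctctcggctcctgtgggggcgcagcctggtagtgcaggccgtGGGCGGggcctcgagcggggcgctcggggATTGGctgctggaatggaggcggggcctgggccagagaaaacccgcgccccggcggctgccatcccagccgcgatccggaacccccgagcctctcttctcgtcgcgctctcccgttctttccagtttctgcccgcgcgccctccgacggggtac

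All 7 held at least 1 GC box, with 5 in Ube2d3, 3 in Actl6a, 2 each in Tdrd3, Rad23b, Kif13a and Rasl11b, and 1 in Gorasp2. A CCAAT box was found in Ube2d3, Rad23b and Rasl11b. Kif13a alone among the 7 held the YY1 letters, and its promoter had the highest GC content of the 7 at 86.7%, with 62 CpG dinucleotides. Gene start here means the start in the RefSeq promoter table. Where that lay more than 1 kb from a region, the 5′ end of the gene in the RefSeq gene table was taken instead. A match describes the letters only.

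The union length of the members ran from 800 to 1545 bp with a median of 904 bp, and 165 members reached 1000 bp. Just inside the limit lay Actr5 and Map1lc3a at 800 bp each, and just outside it Cdk8 at 799 bp and Arrdc1 at 798 bp. The longest single peak of a member had a median length of 805 bp and covered a median of 89.8% of the union length. At many members the full 800 bp was nevertheless reached only once the lists were merged. A single uninterrupted peak of at least 800 bp was present in some library for 343 members (52.6%), whereas at 309 members no library had a peak that long. At 323 members at least 1 library had the region in 2 or more separate peaks. Just 8 members had 800 bp or more in at least 5 libraries, and 217 had it in 1 library only. The longest called length lay in Homo 3 at 228 members, in WT 4 at 153 and in WT 1 at 113, but in a Het library at only 4 members, all in Het 1. Those 3 libraries were the 3 deepest, at 1.61, 1.40 and 1.75 tags per 200 bp, and the part of depth in the breadth was not tested.

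The longest member was at Setd5, which encodes a SET-domain chromatin protein (chr6:113076066-113077610, 1545 bp). It extended 1196 bp upstream of the gene start and 348 bp into the gene, with the start here taken from the gene table. Its called length was 229 and 1454 bp in Homo 1 and Homo 3, with no call in Homo 2, then 350, 200 and 221 bp in Het 1 to 3, and 1210, 954, 699 and 1299 bp in WT 1 to 4. All 3 Het values lay below all 4 WT values, while the Homo values fell on either side of the WT range. The deposited fold at the highest summit differed far less, at 4.79 and 5.75 in Homo, 4.27, 4.46 and 5.70 in Het, and 5.61, 4.82, 5.15 and 5.23 in WT.

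Tdrd3 encodes a tudor-domain reader of methylated arginine, and its region (chr14:87415759-87417265, 1507 bp) included the promoter printed above. It was called over 776 and 561 bp in Homo 1 and Homo 3, over 426, 237 and 200 bp in Het 1 to 3, and over 845, 833, 812 and 879 bp in WT 1 to 4, with no call in Homo 2. The WT lengths lay within a narrow range, and every Homo and Het length was below them. In WT 3 the region was in 3 separate peaks, and no single library had a peak longer than 879 bp.

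Ube2d3 encodes a ubiquitin-conjugating enzyme, and its region (chr3:135437983-135439419, 1437 bp) lay mostly inside the gene, with 249 bp upstream and 1187 bp downstream of the start. Its called length was 634 and 753 bp in Homo 1 and Homo 3, then 467, 981 and 275 bp in Het 1 to 3, and 746, 1137, 992 and 1115 bp in WT 1 to 4, and Homo 2 had no call. Het 2 lay inside the WT range here, unlike at Setd5 and Tdrd3.

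The other long members with a described product were at Elf2 (an ETS-family transcription factor, 1392 bp), Ankrd10 (an ankyrin-repeat protein, 1376 bp), Nrip1 (a corepressor of nuclear receptors, 1367 bp), Nr1d2 (the clock repressor REV-ERBβ, 1350 bp) and Ints6 (a subunit of the Integrator complex, 1343 bp). Gm34296 and 4933440N22Rik, at 1454 and 1452 bp, complete the 10 longest. At Nrip1 the longest call was in Homo 1, with 1144, 213 and 840 bp in Homo 1 to 3, against 461, 307 and 381 bp in Het 1 to 3 and 223, 370 and 1085 bp in WT 2 to 4, and WT 1 had no call. At Nr1d2 the length was 1259 bp in Homo 3, 703 and 554 bp in Het 1 and Het 2, and 832, 903, 939 and 1003 bp in WT 1 to 4, and Homo 1, Homo 2 and Het 3 had no call. The median fold of these 10 ran from 5.15 at Setd5 to 7.14 at Gm34296, and none of them was among the 10 members with the highest median fold.

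The highest median fold among members called in 5 or more lists was at Ppp1r15b, which encodes a regulatory subunit of the eIF2α phosphatase (chr1:133130848-133131910). Its fold was 7.0 and 9.71 in Homo 1 and Homo 3, then 9.47, 9.06 and 7.08 in Het 1 to 3, and 8.33, 9.20, 8.79 and 9.29 in WT 1 to 4. The 3 groups overlapped. The next highest was Rad23b, a DNA damage recognition partner in nucleotide excision repair (chr4:55349562-55350662). It had folds of 5.73, 6.41 and 8.76 in Homo 1 to 3, 9.01 and 7.02 in Het 1 and Het 2, and 9.24, 8.99, 8.16 and 8.87 in WT 1 to 4. Gorasp2, a Golgi stacking protein (chr2:70661081-70661943), had folds of 8.02 and 8.38 in Homo 1 and Homo 3, 10.9, 9.0 and 5.80 in Het 1 to 3, and 8.67, 8.88, 9.33 and 7.37 in WT 1 to 4. Het libraries thus held the highest and the lowest fold at this gene. The rest of these 10 were Asf1a and Spty2d1 (histone chaperones), Crocc (rootletin of the ciliary rootlet), Actl6a, Phactr4, Smg1 (a kinase of nonsense-mediated decay) and Picalm (a clathrin adaptor), with median folds from 8.47 at Picalm to 8.66 at Spty2d1.

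Members were called often in WT libraries and less evenly in the others. Of the 652 members, 373, 110 and 640 were called in Homo 1 to 3, 540, 471 and 289 in Het 1 to 3, and 634, 623, 606 and 646 in WT 1 to 4. Homo 3 lay inside the WT range while Homo 2 had the fewest, and all Het counts lay below all WT counts. The mean was 374 ± 265 members in Homo, 433 ± 130 in Het and 627 ± 17.0 in WT (SD, n = 3, 3 and 4). The difference was -253 members for Homo minus WT, -194 for Het minus WT and -59.0 for Homo minus Het. The rule used these calls, and the longest single call of most members lay in a WT library or Homo 3, so these differences are a description of the members and are given without a test. Without Homo 2 the Homo minus WT difference was -121 members and Homo minus Het turned to 73.2, and without Homo 3 they were -386 and -192. The 127 broad single gene-end regions called in all 10 lists, which the rule leaves out, would add the same number to every library and leave these differences as they are.

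Depth in tags per 200 bp was 0.995 ± 0.576 in Homo, 0.696 ± 0.0415 in Het and 1.32 ± 0.334 in WT (Het minus WT, two-sided exact permutation p = 0.0571). It was higher in WT than in Het, as the counts were. Within Het the depths were close, from 0.655 in Het 2 to 0.738 in Het 3, and Het 3 had the fewest members. Homo 1 had fewer members than Het 1 at a higher depth. No cause of these differences was tested. With all summits thinned to the depth of Homo 2, the members called averaged 285 ± 183 in Homo, 385 ± 139 in Het and 450 ± 33.1 in WT, and the difference was -165 for Homo minus WT and -64.6 for Het minus WT. At equal depth Het 1, with 492 members, was above all 4 WT libraries (405 to 482), while Het 3 had 229. With the 1748 strongest peaks of each list the differences were -24.9 members for Homo minus WT and -13.6 for Het minus WT.

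Narrow single gene-end regions, the 4958 regions chosen in the same way but under 800 bp, were called less often than the members in every library. The share of members called was 57.2, 16.9 and 98.2% in Homo 1 to 3, 82.8, 72.2 and 44.3% in Het 1 to 3, and 97.2, 95.6, 92.9 and 99.1% in WT 1 to 4. For narrow regions it was 32.4, 10.8 and 88.8% in Homo 1 to 3, 53.2, 41.0 and 18.9% in Het 1 to 3, and 86.2, 78.1, 63.4 and 81.1% in WT 1 to 4. The rule used calls and length, so the higher share of broad regions is a description. The log2 ratio of the broad to the narrow share was 0.54 ± 0.35 in Homo, 0.90 ± 0.31 in Het and 0.33 ± 0.16 in WT (SD, n = 3, 3 and 4). The Het and WT ratios did not overlap, with a difference of 0.57. No share can pass 100%, so the ratio has a ceiling that falls as the narrow share rises. With 92.9 to 99.1% of members called in WT, the WT ratios lay near that ceiling. The gap is therefore not read as a difference in the members. Homo minus WT was 0.21 and Homo minus Het -0.36. The highest single ratio was 1.23, in Het 3. At equal depth the differences were 0.11 for Homo minus WT and 0.38 for Het minus WT, while with the 1748 strongest peaks of each list they were -0.16 and -0.04.

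**Figure D1:**
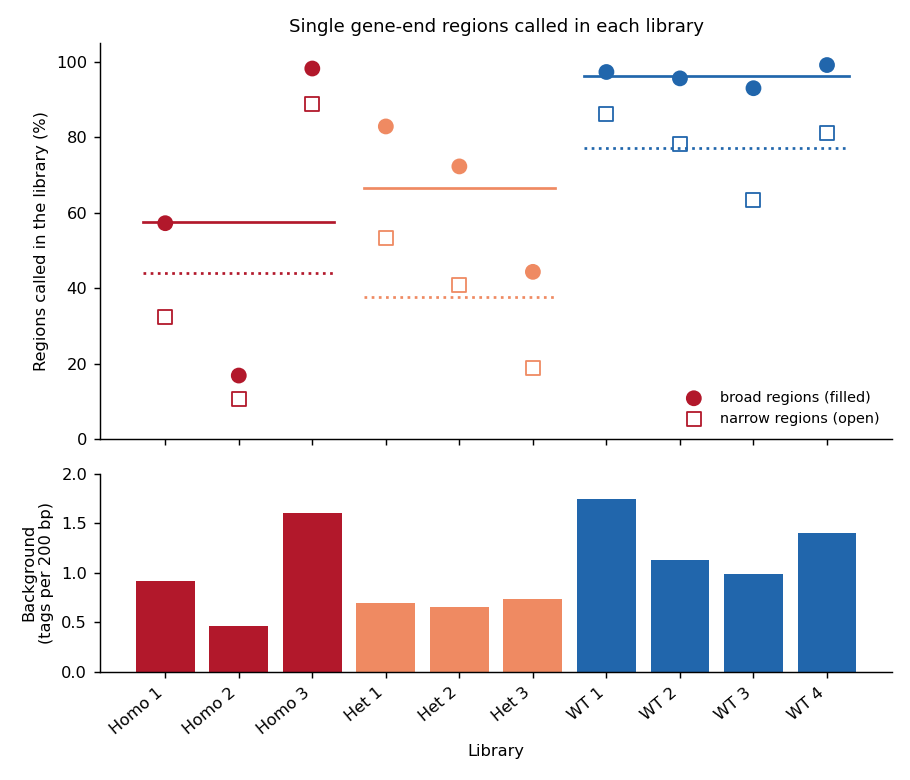
The upper panel gives, for each of the 10 libraries, the percent of broad (filled circles) and narrow (open squares) single gene-end regions called, with group means as solid (broad) and dotted (narrow) lines, and the lower panel gives depth in background tags per 200 bp. Broad regions lie above narrow ones in every library, Homo 2 is lowest in both panels, and all 3 Het libraries lie below all 4 WT libraries in both.

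Per member, the share of Homo libraries with a call was below the share of WT libraries at 582 members and above it at 18. For Het against WT it was lower at 443 members, higher at 16 and equal at 193. The corresponding percentages were 89.3% lower for Homo and 67.9% lower for Het among members, and 83.6% and 84.3% among narrow regions. Between Homo and Het, 46.3% of the members had the lower share in Homo and 21.5% the higher, while among narrow regions 24.2% were lower and 40.5% higher in Homo. The members absent from exactly 1 list numbered 201, of which 136 lacked Homo 2, 34 Het 3, 18 Homo 1, 7 Het 2, and 0 to 2 any other library.

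Among the members, called stretches were shorter in Het than in WT libraries. Length is part of the rule, and most members had their longest call in a WT library or Homo 3, so the lengths below are a description of the members. The median length over the members called was 432, 239.5 and 721 bp in Homo 1 to 3, 427, 369 and 313 bp in Het 1 to 3, and 656, 571, 562.5 and 682.5 bp in WT 1 to 4. All Het medians were below all WT medians, while Homo 3 was the longest and Homo 2 the shortest of the 10. The means were 464 ± 242 bp in Homo, 370 ± 57.0 bp in Het and 618 ± 60.3 bp in WT. Homo minus WT was -154 bp, Het minus WT -248 bp and Homo minus Het 94.5 bp. Homo minus WT was -41.5 bp without Homo 2 and -282 bp without Homo 3.

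Since each list calls its own members, the 136 members called in every list but Homo 2 were also described, a set chosen after the data were seen and subject to the same length rule. Over the same 136 regions the median length was 480.5 and 694.5 bp in Homo 1 and Homo 3, then 478.5, 401 and 367 bp in Het 1 to 3, and 645, 621, 656 and 717 bp in WT 1 to 4. Homo minus WT was -72.3 bp and Het minus WT -244 bp. Calls were also shorter in Het outside the members. Narrow regions had medians of 293, 232.5 and 405 bp in Homo 1 to 3, 297, 279 and 258 bp in Het 1 to 3 and 383, 353, 332 and 378.5 bp in WT 1 to 4. Over the whole lists, with no choice by length, the medians averaged 318 ± 78.3 bp in Homo, 291 ± 17.8 bp in Het and 365 ± 18.3 bp in WT (SD, n = 3, 3 and 4), a smaller gap between Het and WT than among the members. Broad single gene-end regions called in all 10 lists averaged 520 ± 208 bp in Homo, 452 ± 66.7 bp in Het and 654.5 ± 43.9 bp in WT. A wide gap in bp was thus not particular to the members. Thinning drops rows but leaves the ends of the others as deposited, so the part of depth in the called length was not tested.

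**Figure D2:**
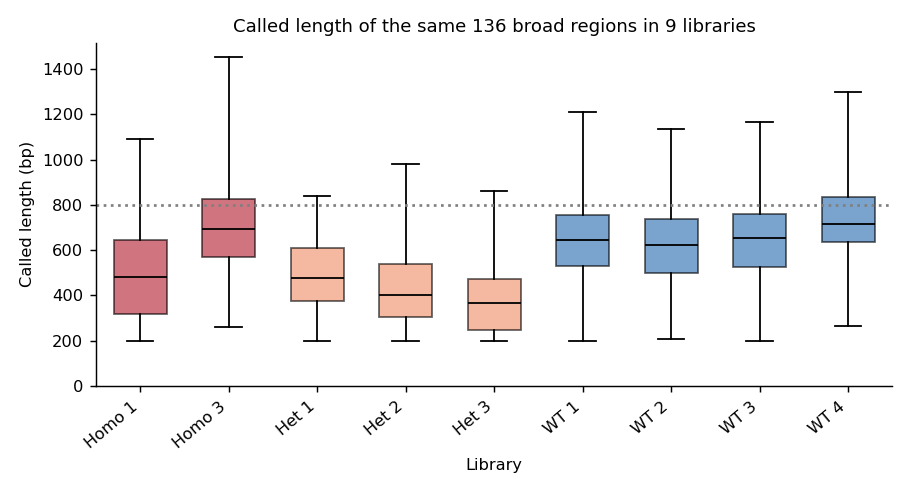
Each box shows the called length in bp of the same 136 broad regions in 1 of 9 libraries (Homo 2, which calls none of them, is not drawn), with the line at the median, the box at the quartiles and the whiskers at the lowest and highest value; the dotted line marks 800 bp. The Het medians, from 367 to 478.5 bp, lie below the WT medians, from 621 to 717 bp, and Homo 1 and Homo 3 lie apart at 480.5 and 694.5 bp.

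The height of the peaks, which the rule did not use directly, overlapped between the groups. A call itself depends on height and depth, and each library's median is over the members that it called. The p-values below therefore speak of called peaks only. The median of the deposited fold over members called was 5.91, 6.05 and 7.44 in Homo 1 to 3, 6.58, 6.41 and 5.81 in Het 1 to 3, and 6.80, 6.76, 6.21 and 6.63 in WT 1 to 4. The mean was 6.47 ± 0.846 in Homo, 6.27 ± 0.403 in Het and 6.60 ± 0.272 in WT. The differences were -0.131 for Homo minus WT (two-sided exact permutation p = 0.743; 0.8 after Benjamini-Hochberg adjustment over 12 tests), -0.329 for Het minus WT (exact p = 0.286, adjusted 0.588) and 0.199 for Homo minus Het (exact p = 0.8, adjusted 0.8). At equal depth the first 2 turned to 0.318 and 0.292 (exact p = 0.229 each), and with the 1748 strongest peaks of each list they were -0.726 (exact p = 0.4) and -0.766 (exact p = 0.143).

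Few members separated the groups completely. Of the 652 members, 18 were called in every WT and no Het library, which is 2.76% of them, against a background of 5.79% of the 5610 single gene-end regions and 5.36% of all union regions in 2 to 9 lists. This is below the background share, but a region in 8 or 9 lists cannot show the pattern. Of the members 26.5% were in 8 lists and 30.8% in 9, against 13.9 and 8.23% of narrow regions. The lower share is therefore not read as a trait of the members. For this pattern, leaving out Het 1 gave 84 members, leaving out Het 2 gave 50 and leaving out WT 3 gave 29, while equal depth gave 4. The other direction, called in every Het and no WT library, held 1 member, Kif13a, against 0.0178% and 0.0108%. Every Homo and no Het library called 2 members, among them Rasl11b (against 0.321% and 0.345%), a count of 11 without Het 1, 9 without Homo 2 and 6 without Homo 1, and every Het and no Homo library called 0 members (0.0891% and 0.0862%), or 37 without Homo 3. Every WT and no Homo library called 1 member, Arhgef17 (0.374% and 0.377%), or 200 without Homo 3, 4 without Homo 1 and 2 without WT 2. Every Homo and no WT library called 0 members (0.0178% and 0.0215%). No member was called in all Homo and Het and no WT libraries (0% and 0% in the background), and none in all WT and no Homo or Het library (0.196% and 0.172%), which became 12 without Homo 3. Single regions were not tested, since 4 against 3 libraries cannot pass an adjustment over the regions.

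Actl6a, an actin-related subunit of the same BAF complex as ARID1A, had the highest median fold among the 10 strongest members called in WT and not in Het (chr3:32708358-32709221). It had a fold of 9.17 in Homo 3, against 10.2, 5.43, 4.96 and 8.59 in WT 1 to 4, and no call in Homo 1, Homo 2 or any Het library. Its called length was 445 bp in Homo 3, against 517, 605, 200 and 620 bp in WT 1 to 4. After thinning to equal depth its calls were in 1 of 3 Homo, 0 of 3 Het and 4 of 4 WT libraries. Rab3ip, an exchange factor for RAB8 (chr10:116949896-116950705), likewise kept 0 of 3 Het and 4 of 4 WT calls at equal depth, with deposited folds of 8.33 in Homo 3 and 6.28, 5.95, 5.51 and 6.60 in WT 1 to 4.

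Tada1, a subunit of the SAGA coactivator (chr1:166378781-166379653), had folds of 8.21 in Homo 3 and 8.90, 8.28, 6.16 and 11.1 in WT 1 to 4. Nek1, a kinase tied to cilia and DNA repair (chr8:60992683-60993623), had 7.28 in Homo 3 and 7.45, 7.74, 6.98 and 7.67 in WT 1 to 4. Knl1, a kinetochore scaffold (chr2:119046676-119047491), had a higher fold in Homo 3 than its 6.94, 6.60, 5.51 and 8.04 in WT 1 to 4. Homo 3 was the only Homo library with a call at these 3 genes. The others named by rank were Bag6 (a chaperone), Slc30a1 (a zinc exporter), Rab11a (a GTPase of recycling endosomes), Cecr2 (a bromodomain partner of ISWI remodellers) and 1600014C10Rik. Cecr2 was called in Homo 2 and Homo 3 and 1600014C10Rik in Homo 1 and Homo 3, whereas the calls of Bag6, Slc30a1 and Rab11a outside WT were in Homo 3. At equal depth Slc30a1 had 3 of 4 WT calls and the other 4 had 2 or 3.

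Rasl11b, a small RAS-like GTPase (chr5:74194851-74195764), was called in all Homo and all WT libraries and in no Het library. It had folds of 7.09, 5.49 and 5.62 in Homo 1 to 3 and 7.33, 5.30, 4.30 and 6.12 in WT 1 to 4, and these values overlapped. Kif13a, a kinesin motor (chr13:46929602-46930530), had folds of 7.04 and 5.52 in Homo 1 and Homo 3 and 5.17, 4.59 and 5.98 in Het 1 to 3, and no call in Homo 2 or WT. No library had more than 508 bp of it, and its strength was low, with a median rank at the 21.6th percentile of −log10 p within the lists. Arhgef17, a guanine nucleotide exchange factor (chr7:100932178-100933070), had folds of 7.63 and 6.14 in Het 1 and Het 2 and 5.43, 5.56, 6.65 and 4.96 in WT 1 to 4, and no call in any Homo library.

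**Figure D3:**
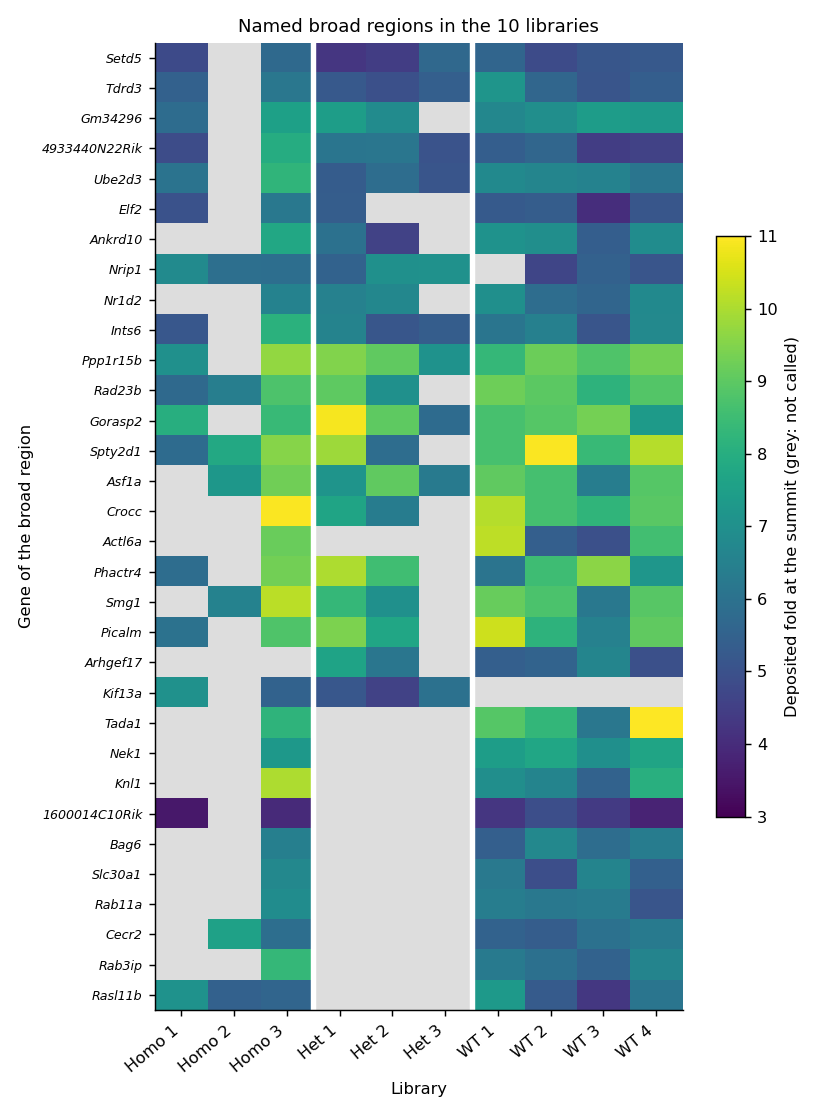
Rows are broad regions named in the text (the 10 longest, the 10 with the highest median fold and those given for separating groups), columns are the 10 libraries with Homo left, Het in the middle and WT right, and colour gives the deposited fold at the summit; grey means no call. Kif13a is grey across WT, Actl6a and the rows from Tada1 down are grey across Het, and Homo 2 is grey at most genes.

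At gene ends of known strand the members lay over starts. Of the 652, 514 were matched to the promoter table and 511 of these lay at a gene start, 2 of them also at the finish, and 3 at a finish only. The start was inside the region at 484 (94.7% of 511). The region reached a median of 450 bp upstream and 477 bp downstream of the start. The median summit lay at -63.5 bp from the start, against -28.5 bp in narrow regions (negative is upstream), and 80.6% of members had it within 300 bp of the start, against 92.3% of narrow ones. Some members sat off the listed start. The Zbtb2 and Kat6b regions lay wholly inside the gene, with summits 1057 and 874.5 bp downstream, and that of Hmga1 lay wholly upstream, with the summit 1045 bp before the start.

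The promoters of members had a higher median GC content than those of narrow regions. The median GC content of the 300-base promoter was 68.0% in members (500 with an entry within 1 kb), 62.3% in narrow regions and 56.3% over 17273 protein-coding genes. The ratio of CpG dinucleotides observed to expected was 0.89, 0.82 and 0.57, and 93.6% of members, 81.3% of narrow regions and 45.3% of genes were CpG-rich (GC over 50% and a ratio over 0.6). A GC box (GGGCGG) was in 86.2% of members, 74.1% of narrow regions and 46.4% of genes. For the ETS letters CCGGAAG the order differed, with 13.6, 20.7 and 11.98%. The shares were 39.0, 42.2 and 39.3% for CCAAT, 10.4, 11.9 and 7.84% for the E-box CACGTG that MYC can bind, 6.20, 5.24 and 3.24% for the YY1 letters AAGATGGC, 6.20, 5.29 and 13.4% for TATAAA, 2.20, 3.49 and 7.11% for the AP-1 letters TGANTCA, and 3.40, 3.90 and 2.25% for the CRE letters TGACGTCA. All were searched on both strands, and none of these motifs contains another. Broad single gene-end regions called in all 10 lists had a median GC content of 69.3% and a CpG ratio of 0.93. Of them, 90.6% were CpG-rich and 84.0% had a GC box. These traits were thus not particular to the members. No test was made of these shares.

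Genes of members were longer and had more neighbouring starts. The median gene length was 32.9 kb in members, 25.2 kb in narrow regions and 17.3 kb over all genes. A lncRNA start lay within 1 kb of the gene start at 15.1% of members, 11.8% of narrow regions and 6.38% of genes, and 2 or more starts of the gene itself were listed at 23.5, 16.9 and 15.98%. The X chromosome held 2 members (0.307%), against 1.997% of narrow regions and 4.73% of genes.

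Around the start, the calls of 1 library had another shape. The part of the called bases that lay downstream of the start was 58.8, 42.2 and 44.3% in Homo 1 to 3, 41.5, 39.98 and 47.5% in Het 1 to 3, and 41.3, 41.2, 48.6 and 47.2% in WT 1 to 4. Homo 1 stood apart, and the group means of 48.4 ± 9.02% in Homo, 43.0 ± 3.97% in Het and 44.6 ± 3.86% in WT overlapped. At 400 bp downstream Homo 1 covered 21.5% of the members and at 400 bp upstream 9.78%, whereas Homo 3 covered 30.3% and 44.2%. The same library was also highest among narrow regions, at 57.1%, and among the broad regions called in all lists, at 60.3%.

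**Figure D4:**
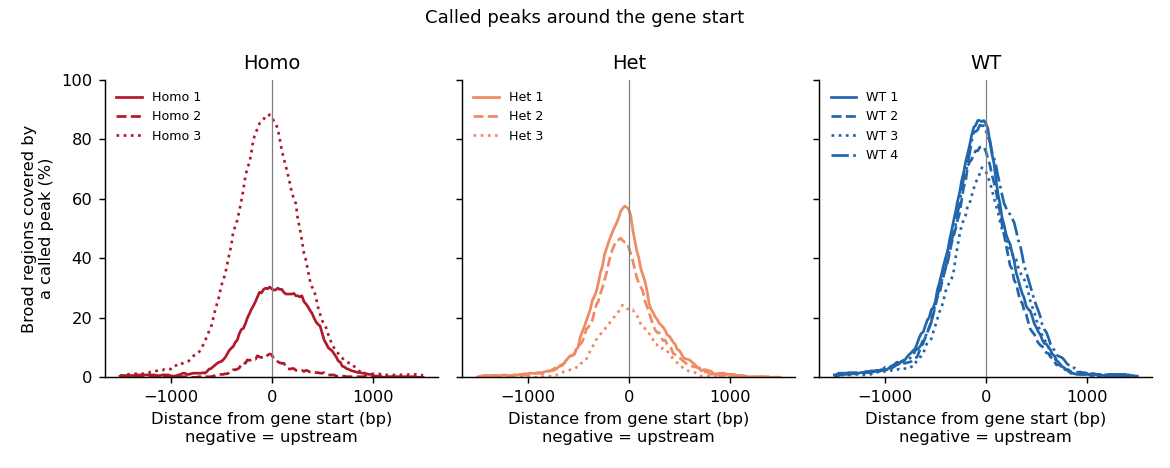
Each line gives, for 1 library, the percent of broad regions at a gene start that a called peak covers at each distance in bp from the start (negative is upstream), in panels for Homo, Het and WT. Tops lie 20 to 80 bp upstream of the start in all libraries and range from 7.83% in Homo 2 to 88.3% in Homo 3, and Homo 1 has a shoulder on the downstream side.

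Genes were also counted by function over 22 lists, beside 652 of 21627 protein-coding genes (3.01%). A gene without any gene-end region could not be counted, and the lists differed in this. Some gene-end region was found at 9215 of the 21627 genes. The number was 54 of 68 for histone-modifying and Polycomb genes, 15 of 19 for clock genes and 39 of 45 for AP-1, immediate early and stress genes. Among chromatin genes, 11 of 68 histone-modifying and Polycomb genes were members, including Suz12 and Rnf2 (core subunits of the Polycomb complexes), Kmt2e, Kdm3a, Kdm3b, Kat6a, Kat6b, Sirt1 and Tet2. SWI/SNF subunits gave 4 of 28, namely Smarca4 (the BRG1 ATPase), Actl6a, Phf10 (a PBAF subunit) and Bcl7c. Smarca4 was called in Homo 1 and Homo 3, in Het 1 and in all WT libraries, with folds of 5.86 and 8.30 in Homo, 5.79 in Het and 8.38, 6.98, 7.45 and 8.14 in WT. Phf10 and Bcl7c were each called in 2 of 3 Homo, 3 of 3 Het and 4 of 4 WT libraries.

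Among transcription factor lists, ZBTB and KLF/SP zinc finger factors gave 8 of 46 (Zbtb2, Zbtb5, Zbtb10, Zbtb37, Klf11, Klf16, Sp1 and Sp3), and AP-1, immediate early and stress genes gave 8 of 45 (among them Atf4, Egr1, Maff, Ier5 and Hspa8). Circadian clock genes gave 4 of 19, with the activator Clock, the repressors Nr1d2 and Bhlhe40, and Ciart. Liver transcription factors gave 2 of 30, Cebpa and Ppara. Homeobox, SOX and other developmental factors gave 0 of 63, although 21 of them had a gene-end region of some kind. At Cebpa, which encodes a master regulator of hepatocyte genes, the called length was 867 and 631 bp in Homo 1 and Homo 3, then 689, 722 and 556 bp in Het 1 to 3, and 646, 560, 859 and 690 bp in WT 1 to 4. These groups overlapped. At Egr1, an immediate early factor, the fold was 5.12 and 5.49 in Homo 1 and Homo 3, 5.26 and 5.0 in Het 2 and Het 3, and 4.02, 5.16, 5.82 and 4.67 in WT 1 to 4.

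Growth and signalling lists gave 7 of 52 cell cycle genes (Ccne1 and Ccne2, the E-type cyclins, with Cdk9, Cdk12, E2f1, E2f8 and Rbl1), 3 of 35 MYC network and nucleolar growth genes (Ncl, Odc1 and Tfrc), 2 of 27 p53 and apoptosis genes (Mdm2 and Bax), and 4 of 39 feedback regulators (Dusp1, Socs1, Smad7 and Znrf3). Odc1, a MYC target that makes polyamines, had folds of 6.91, 5.56 and 8.48 in Homo 1 to 3, 6.64 and 6.56 in Het 1 and Het 2, and 7.43, 5.59, 5.35 and 6.28 in WT 1 to 4. Dusp1, a phosphatase of MAP kinases, had called lengths of 355, 486 and 686 bp in Homo 1 to 3, 205 and 411 bp in Het 1 and Het 2, and 835, 822, 899 and 1042 bp in WT 1 to 4. All Homo and Het lengths at Dusp1 were below all WT lengths. Smad7, an inhibitor of TGF-β signalling, was among the 18 regions called in WT and not in Het, with folds of 4.78 and 6.27 in Homo 1 and Homo 3 and 5.28, 5.97, 5.59 and 4.40 in WT 1 to 4.

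The remaining lists gave 5 of 25 housekeeping genes (among them Ppia, Ubb, Srsf1 and Tfrc), 2 of 49 metabolic genes (Gls2 and Insig1), 2 of 28 metastasis and migration genes (Itgb1 and Rhob), 1 of 15 fetal liver genes (Hmga1) and 1 of 28 plasma protein and hepatocyte genes (Rbp4). The lists of endothelial (10 genes), macrophage (10), stellate and fibroblast (10), lymphocyte and neutrophil (10), cholangiocyte (8) and erythroid (8) markers gave 0. A gene-end region of any kind was found at 1 macrophage, 2 cholangiocyte and 1 erythroid gene of these lists. Endothelial, stellate and fibroblast, and lymphocyte and neutrophil genes had none. At Rhob, a small GTPase, the length was 1090 and 657 bp in Homo 1 and Homo 3, 841, 648 and 862 bp in Het 1 to 3, and 577, 525, 933 and 742 bp in WT 1 to 4, so that Het did not lie below WT at this gene. The lists hold well-known genes, and these counts were not tested.

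**Figure D5:**
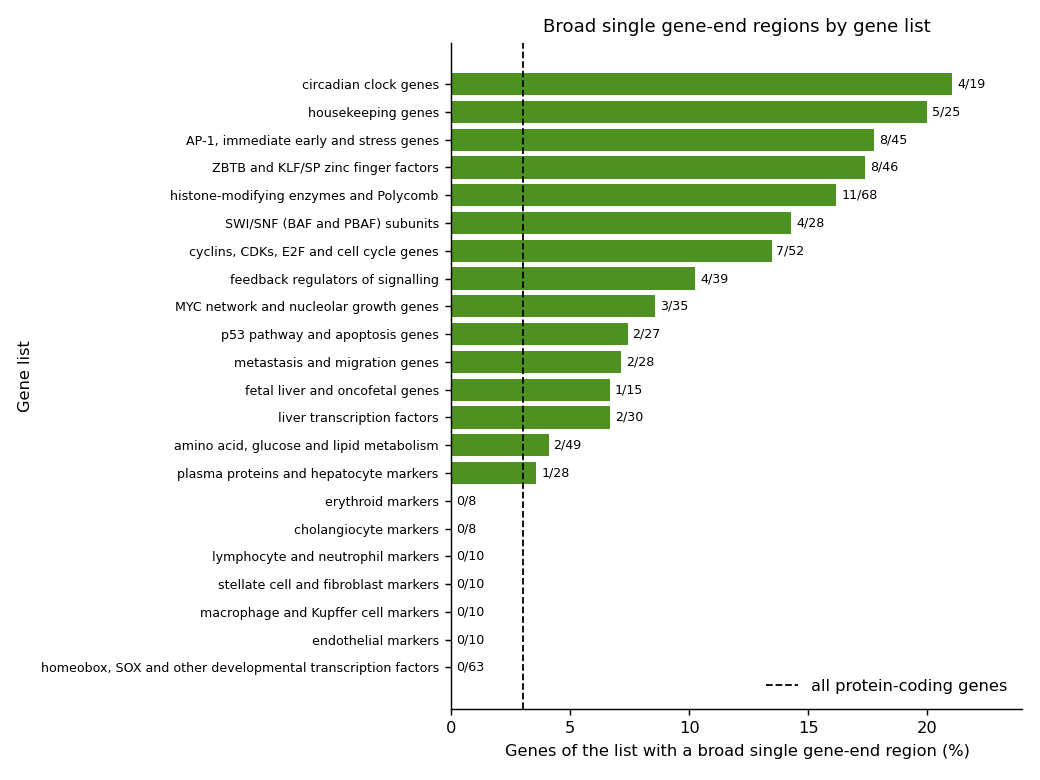
Bars give the percent of the genes of each of 22 lists that are the gene of a broad region, with members over genes in the table beside each bar, and the dashed line gives all protein-coding genes (3.01%). Clock genes (4 of 19) are at the top, and developmental factors (0 of 63) and the 6 marker lists of other cell types are at 0.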

How the data were processed

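ATAC-seq was measured in 10 libraries and the authors deposited 1 narrowPeak list per library, called per sample. Bowtie2, MACS2, deepTools and mm10 are named in the submitters' processing notes; their versions and settings, the read filters and any transposase shift were not given in the sources used here. In each row the authors deposited a score, a fold (a ratio of summit pileup to local background), and −log10 p and −log10 q values, all used only to describe, rank or filter peaks. The smallest deposited −log10 p lay between 5.003 and 5.63 in the 10 lists. No read counts per region were used.

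Rows were merged within each list and then across lists, and a library called a region when a row overlapped it by at least 1 bp. The 242 rows on Y and M were not used. The members and the gene lists were chosen with earlier results of these data known. Gene ends came from the RefSeq gene table of GRCm38.p6 (21627 protein-coding genes on chromosomes used), and strand, starts and sequences from the RefSeq promoter table, which matched 514 members. Called length is the sum of a library's merged rows in the region, and fold the highest there. Depth was the lowest background value that 10 or more rows share, after solving pileup and background from each row's fold and −log10 p (tolerance 0.001 in −log10 p, 99.9% of rows), and was not checked against read totals. For equal depth, summits were thinned in 20 seeded draws and kept at −log10 p of at least 5; gene-level calls come from 1 draw.

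Groups were compared by exact permutation of library labels, two-sided on the mean difference (35 splits for 4 against 3 and 20 for 3 against 3), with Benjamini-Hochberg adjustment over 12 tests. These 12 covered calls, the ratio of broad to narrow calls, length and fold; the first 3 measures use what chose the members, so their p-values are not given. The tests were tested on simulated data. Named genes were the 10 longest members, the 10 with the highest median fold among those called in 5 or more lists, up to 10 per direction of each group contrast by median rank of −log10 p, members on the gene lists, and the 2 on each side of 800 bp. Dusp1, Rhob, Odc1, Cebpa and the other list members given with values were picked from that set after their values were seen. Promoters printed were the first in each class whose 300-base window overlaps the region, which passed over Setd5 and 4933440N22Rik. Some members that the rule selects are not reported here. Of 658 entries in 22 lists, 653 were in the gene table. Alternatives were equal depth, an equal number of strongest peaks, −log10 p of at least 10, an overlap of 200 bp, a union length of 1000 bp, gene ends within 500 bp, leaving out each library, a replicate block and, added after the data were seen, members common to 9 lists. Python 3.11.15, numpy 2.4.6, pandas 2.3.3, scipy 1.17.1 and matplotlib 3.10.9 were used.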

Additional observations from a re-analysis of the deposited data

Results flagged for a closer look

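Among the named members, 66 groups of 4 libraries (WT, for fold or length) were examined for a library far from the other 3, and 5 had one; chance alone marks about 1 in 20 such groups. At Ankrd10 the fold in WT 3 was 5.38, against 7.09, 6.97 and 6.88 in WT 1, WT 2 and WT 4. At Asf1a it was 6.38 in WT 3, against 9.05, 8.65 and 8.88, and at Smg1 it was 6.21 in WT 3, against 9.14, 8.73 and 8.92. WT 3, the low library at these 3 genes, was the shallowest of the WT libraries at 0.985 tags per 200 bp, and the part of depth was not tested. At Rab11a the fold was 5.12 in WT 4, against 6.38, 6.21 and 6.34 in WT 1 to 3. At Ints6 the called length was 987 bp in WT 4, against 709, 655 and 683 bp in WT 1 to 3.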

How the results depend on the processing

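The number of members was 165 at a union length of 1000 bp. At equal depth the fold differences turned to 0.318 (Homo minus WT) and 0.292 (Het minus WT), and the members called in every library of one group and none of the other were 12 (WT, not Homo), 4 (WT, not Het), 6 (Het, not Homo) and 1 (WT, not Homo or Het). With equal numbers of strongest peaks the log2 ratios were -0.16 (Homo minus WT) and -0.037 (Het minus WT), and the counts were 4 (WT, not Homo), 3 (Het, not WT), 4 (WT, not Het) and 5 (Het, not Homo). At −log10 p of at least 10, members called were 15.3 higher in Homo than Het, the fold differences were 0.186 (Homo minus WT) and 0.0917 (Het minus WT), and the counts were 2 (WT, not Homo), 0 (Het, not WT), 61 (WT, not Het) and 1 (Homo, not Het). At 1000 bp they were 0 (WT, not Homo), 0 (Het, not WT), 4 (WT, not Het) and 1 (Homo, not Het). The cause was not tested.

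Leaving out 1 library at a time, members called ranged from -386 to -121 (Homo minus WT), -247 to -122 (Het minus WT) and -192 to 73.2 (Homo minus Het); the log2 ratio from 0.07 to 0.41, 0.40 to 0.70 and -0.50 to -0.16; the length from -282 to -41.5, -277 to -220.0 and -33.9 to 207 bp; and the fold from -0.618 to 0.149, -0.486 to -0.102 and -0.288 to 0.478, in the same order. Homo minus WT fold was 0.149 without Homo 1 and 0.0770 without Homo 2; Homo minus Het fold was -0.288 without Homo 3 and -0.0290 without Het 3. The counts ranged from 0 to 1 (Homo, not WT), 1 to 200 (WT, not Homo), 1 to 1 (Het, not WT), 19 to 84 (WT, not Het), 2 to 11 (Homo, not Het), 0 to 37 (Het, not Homo), 0 to 1 (Homo and Het, not WT) and 0 to 12 (WT, not Homo or Het). All 12 differences kept their direction with gene ends within 500 bp. An overlap of 200 bp left every value as it was. Each peak lies wholly inside its merged region, so this overlap could drop only peaks shorter than 200 bp and is no check of the calls.

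Same-numbered libraries did not deviate together (correlations from -0.14 to 0.01 over members), and libraries of different number gave -0.07 to 0.12. This gave no sign that the numbers pair the libraries. Correlations over these calls cannot exclude shared processing. With the replicate block, a mean of paired differences equals the difference of means over the same libraries, whatever the pairing. Its values were thus those without WT 4, at -188 members and -227 bp for Het minus WT and -247 members for Homo minus WT. Homo minus Het was as in the main result. The direction kept by the 12 differences therefore does not test the pairing. Depth limits these results, since no read totals were used and a region missing from a shallow list may be accessible.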
